A study of Mus musculus with 40 samples.

Results

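The genes of major histocompatibility complex (MHC) class II antigen presentation were followed in the RNA of mouse CT26 tumors. Their members were chosen by gene symbol, as H2-Aa, H2-Ab1, H2-Eb1, Cd74, Ciita, H2-DMa, H2-DMb1, H2-DMb2, H2-Oa and H2-Ob. They are 10 of the 54087 genes in the count table, and all 10 passed the filter on low counts, which left 14760 genes. CT26 is an established colon carcinoma line of BALB/c mice. Each of 40 BALB/c mice, 6 to 12 weeks old per the study's methods, carried a subcutaneous tumor grown from 1000000 CT26 cells. Antibodies were injected into the peritoneum on days 6, 9 and 12, and the tumors were taken on day 13, with 5 mice in each of 8 groups. The isotype control group received motavizumab, a mouse IgG2a with no target in these mice. Single treatments were anti-PD-1 FcS, whose Fc part is silent, anti-TGF-β (clone 1D11), and clone 58A2 against the GARP:TGF-β1 complex of regulatory T cells. The last was given as mouse IgG2a with a working Fc part (WT) or a dead one (FcD), and these groups are named anti-GARP:TGF-β1 WT and FcD here. The other 3 groups received anti-PD-1 FcS together with the WT or FcD form or with anti-TGF-β, and are called the WT, FcD and anti-TGF-β combinations. The groups differ in these antibodies alone, as far as the labels say. Whole tumor fragments were used, so the RNA comes from carcinoma cells and from every host cell within the tumor. Of 3 epithelial markers, Krt18 had counts in all 40 tumors, while Epcam was at 0 in 7 and Krt8 in 3.

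MHC class II molecules hold peptides from proteins that a cell has taken up and show them to CD4+ T cells. Dendritic cells, macrophages and B cells carry them at rest, and interferon-γ makes many other cells carry them through the transcriptional coactivator CIITA. An α and a β chain assemble in the endoplasmic reticulum around the invariant chain, encoded by Cd74, which fills the groove and guides the complex to endosomes. There H2-DM exchanges the remnant of the invariant chain for a peptide, and H2-O, found mainly in B cells, restrains H2-DM. H2-Aa and H2-Ab1 encode the α and β chains of the A molecule and H2-Eb1 the β chain of the E molecule.

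In the annotation of the mouse genome GRCm38 (GENCODE M21), Ciita lies at chr16:10480059-10528418 on the plus strand. The 8 members whose names begin with H2 lie together in the MHC on chromosome 17, between the start of H2-Oa at 34092340 and the end of H2-Eb1 at 34316674, all on the plus strand except H2-Aa. Class II promoters are known for an X box, bound by the RFX complex, and a Y box, an inverted CCAAT sequence bound by NF-Y, and CIITA docks on the proteins bound there. RefSeq promoter windows (GRCm38.p6, 250 bases before to 50 after the start site) were at hand for 7 members in 8 windows, H2-DMa having a pair. The core of the Y box, ATTGG on the strand of the gene, stood between 90 and 21 bases before the start site in 6 of the 8 windows. That zone was chosen after the matches had been seen, and 8.13% of 32851 promoters hold ATTGG there. Anywhere in the window and on either strand, ATTGG was found in 7 of the 8 windows and in 37.4% of all promoters. The longer form CTGATTGG, which contains it, was found in 3 of the 8 windows (H2-Aa, H2-Eb1 and H2-Oa), against 4.10% of all promoters. An X box pattern, GCAAC followed by any 3 bases and TG, was found on either strand in 2 of the 8 windows (H2-Eb1 and H2-Ob), against 2.73%. The matches are a description of letters and not of bound factors.

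The 4 stretches of 70 bases show where these letters stand in a chain gene of each class II molecule, in H2-DM and in H2-O, and they overlap no annotated exon. They run 5′ to 3′ on the strand of the gene, with ATTGG and, where present, the X box match in capitals. The H2-Aa stretch is chr17:34287847-34287916 on the minus strand, and those of H2-Eb1 (chr17:34305763-34305832), H2-DMb2 (chr17:34145114-34145183) and H2-Ob (chr17:34238803-34238872) are on the plus strand. The H2-DMb2 stretch lies in an intron of a longer transcript of that gene, and the H2-Eb1 stretch in an intron of the antisense gene Gm20513.
H2-Aa: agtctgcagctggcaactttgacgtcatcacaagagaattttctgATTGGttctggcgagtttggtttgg
H2-Eb1: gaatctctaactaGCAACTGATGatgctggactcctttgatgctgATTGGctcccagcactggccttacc
H2-DMb2: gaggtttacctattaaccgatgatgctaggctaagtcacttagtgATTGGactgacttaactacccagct
H2-Ob: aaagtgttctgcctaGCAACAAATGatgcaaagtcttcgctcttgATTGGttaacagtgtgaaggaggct

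**Figure D1:**
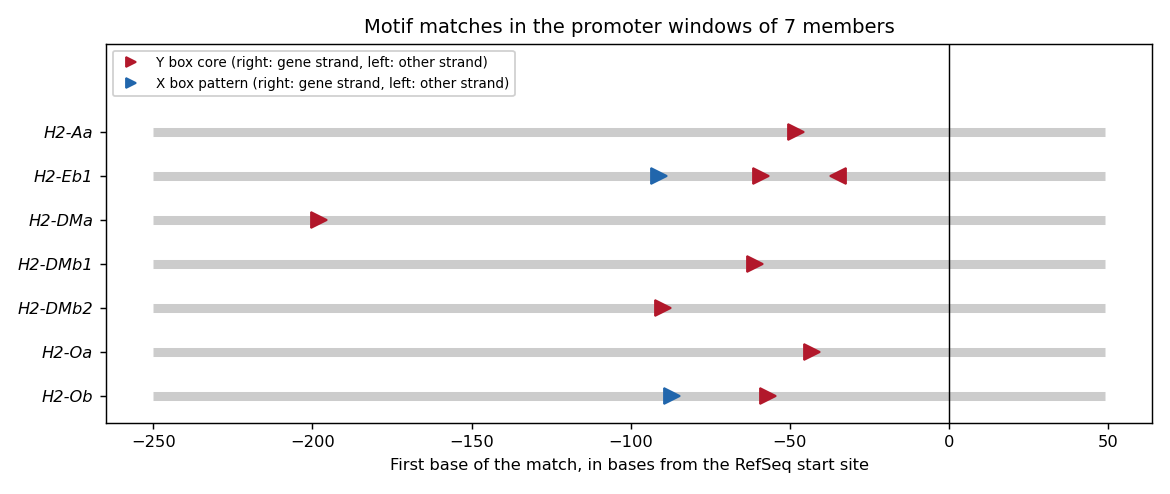
Matches of the Y box core (red) and the X box pattern (blue) in the RefSeq promoter windows of 7 members, by the distance of the first base from the start site in bases. Grey bars are the windows, and both windows of H2-DMa share a row. Apart from H2-DMa, each gene has a red match on its own strand between 90 and 43 bases before the start site.

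Before the members are described, 2 features of the series bear on them. The library numbers in the labels fall into 41 to 60 and 61 to 80, with 2 or 3 mice of each group in either part. Libraries 41 to 60 held 266 to 1078 counts of 4 chromosome Y genes and at most 6 of Xist, the transcript that silences an X chromosome, while libraries 61 to 80 held at most 1 and at least 784. H2-Aa or a summary over the members is therefore also given within each part for the comparisons between groups. No such value is given for the interactions, the ratios or the counts over pathway lists. Total counts ran from 11931730 to 20680548 per mouse. Replicate 5 of the WT combination stood apart, with 2389.5 CPM of H2-Aa and the highest summed macrophage and T cell markers of all 40 tumors. Values of that group without it are given beside the main comparisons, but not for the pathway lists. The reads of BALB/c mice (haplotype H-2d) were aligned to a C57BL/6 reference (H-2b), which may lower the count of polymorphic class II genes alike in all groups. In bulk tumor RNA, fewer cells of a type and less RNA per cell cannot be told apart.

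Levels are given as CPM, each gene's counts divided by the total of the tumor and expressed per 1000000, scaled between tumors with edgeR's TMM factors. Per kilobase of annotated exons, a rough scale for setting genes side by side, the median over the 40 tumors was 480.1 for Cd74. It was 163 for H2-Eb1, 138 for H2-Ab1 and 109 for H2-Aa. Cd74 thus had the highest value of the 10 members, and the chain genes followed. The order among the chain genes depends on the exon lengths used (1944, 2568 and 3798 bases). Without division by length their medians were 317, 355 and 413 CPM, the reverse order, and Cd74 was again highest at 806 CPM. The possible loss of reads of polymorphic genes on the reference also limits this comparison between genes. H2-DMb1 (21.4), H2-DMa (20.9) and H2-DMb2 (12.5) were lower, and Ciita, the coactivator, stood at 2.03 CPM per kilobase. H2-Oa (0.399) and H2-Ob (0.214) were the lowest, resting on 2 to 68 and 2 to 165 counts per tumor. H2-DMb1 and H2-DMb2 are close copies of each other, so the split of their reads is uncertain.

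The spread between tumors was wide. The highest tumor had 41.0 times the H2-Aa level of the lowest, and the same ratio was 56.9 for H2-Eb1, 54.1 for Ciita and 9.07 for H2-DMa. H2-DMa thus varied least of the 10 members on this measure. For H2-Aa in the isotype control tumors, replicates 1 to 5 were at 343, 499.7, 306, 209 and 194 CPM. The anti-PD-1 FcS tumors were at 89.7, 729.9, 199, 456 and 245 CPM and the anti-TGF-β tumors at 254, 711, 159, 345 and 271 CPM, so both groups overlapped the isotype control on either side. With anti-GARP:TGF-β1 WT the values were 507, 615, 578, 217 and 182 CPM, and with anti-GARP:TGF-β1 FcD 453, 224, 331, 374 and 58.2 CPM. The 3 tumors of the WT group from libraries 41 to 60 were above the isotype control and the other 2 were within or below it. In the WT combination the tumors were at 473, 308, 679, 333 and 2389.5 CPM, so 1 tumor stood far above the other 4. In the FcD combination they were at 1024, 503, 836, 832 and 514 CPM, and all 5 exceeded the highest isotype control. In the anti-TGF-β combination they were at 630.3, 683, 482, 304 and 791 CPM, and 3 of 5 exceeded it. Group means were 310.2 ± 123 CPM (SD, n = 5) in the isotype control, 837 ± 881 in the WT, 742 ± 227 in the FcD and 578 ± 189 in the anti-TGF-β combination.

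**Figure D2:**
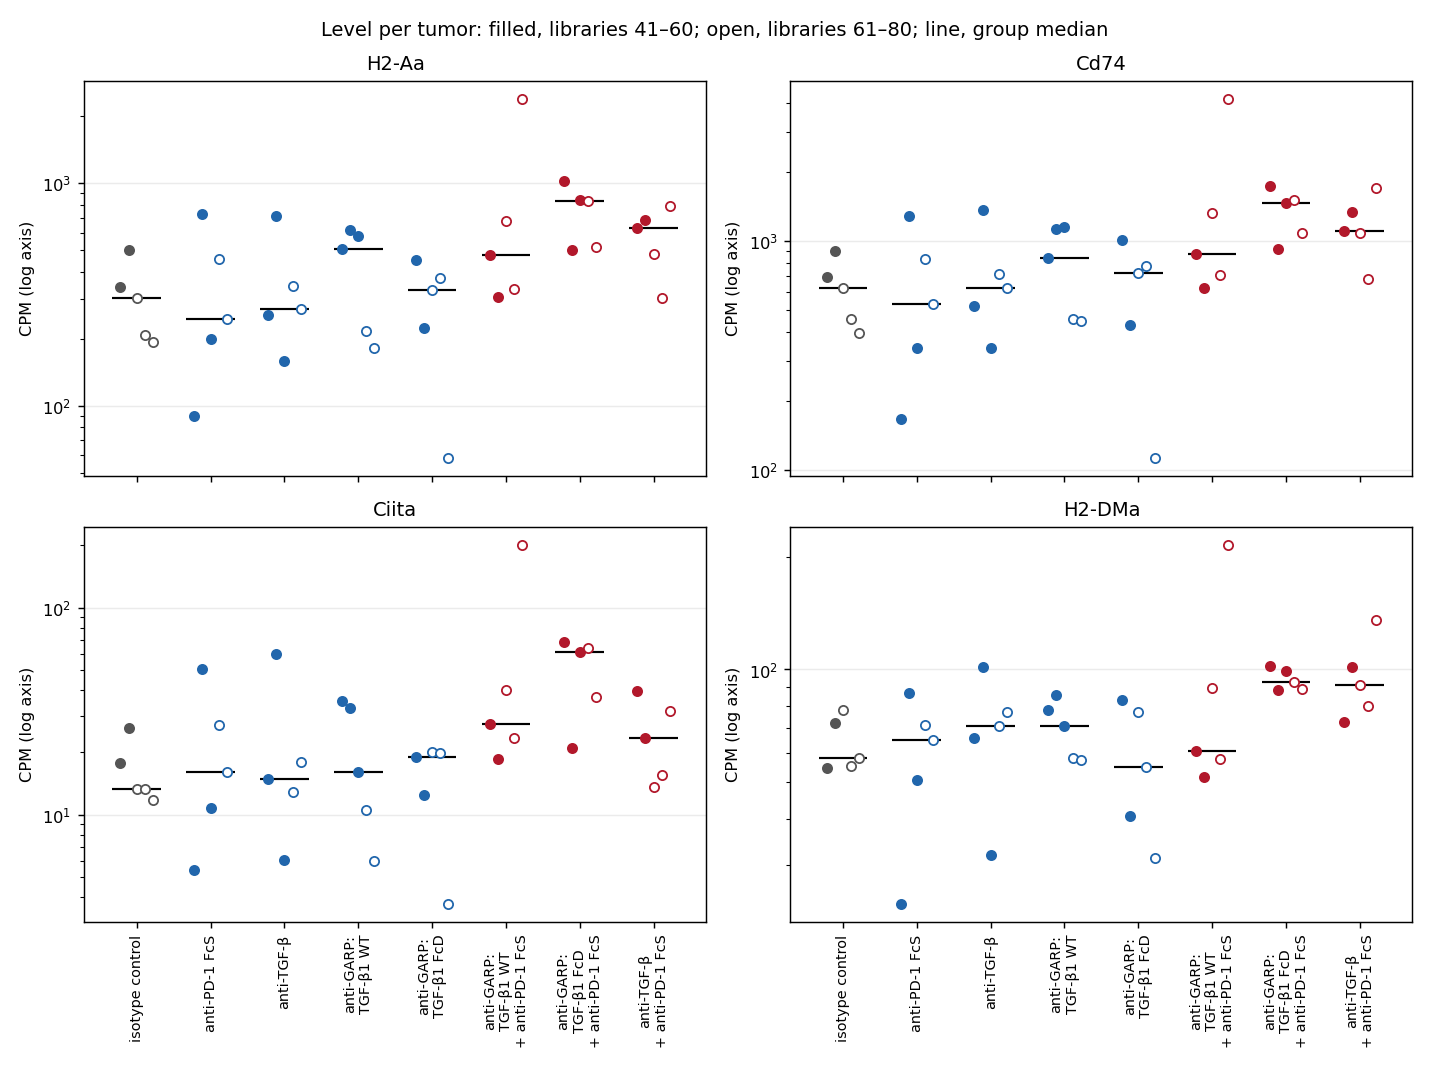
Level of H2-Aa, Cd74, Ciita and H2-DMa in each of the 40 tumors, in CPM on a log axis, by group. Filled points are libraries 41 to 60, open points 61 to 80, and the line is the group median. The FcD combination tumors sit above all isotype control tumors for H2-Aa, Cd74 and H2-DMa, and 1 tumor of the WT combination is the highest in every panel.

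By mean log2 CPM, H2-Aa was highest in the FcD combination, followed by the WT combination, the anti-TGF-β combination, anti-GARP:TGF-β1 WT, anti-TGF-β, the isotype control, anti-PD-1 FcS and anti-GARP:TGF-β1 FcD. No neighbours in this order differed beyond their spread, since the ranges of each pair overlapped and the lowest 2-sided exact permutation p over the 7 pairs was 0.222. The same held in all 70 neighbouring pairs of the 10 members, where the lowest exact permutation p was 0.175 (the smallest that 5 against 5 mice allow is 0.00794).

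Against the isotype control, all 10 members had a positive log2 fold change in each of the 3 combinations, and no member reached the threshold (adjusted p under 0.05) of edgeR's quasi-likelihood test with Benjamini-Hochberg adjustment over 14760 genes. In that test 0% of all genes were called in each of the 3 combinations and each single treatment against the isotype control, so the members are described by their values. Unadjusted, 3048, 2445 and 2972 genes had a p under 0.05 in the WT, FcD and anti-TGF-β combinations. In the WT combination the log2 fold change was 1.43 (SE 0.54) for H2-Aa, 1.53 (SE 0.53) for H2-Ab1 and 1.57 (SE 0.57) for H2-Eb1. It was 1.32 (SE 0.51) for Cd74 and 1.91 (SE 0.63) for Ciita, whose tumors were at 27.3, 18.7, 40.0, 23.5 and 201 CPM against 17.7, 26.2, 13.3, 13.4 and 11.8 CPM in the isotype control. The adjusted p lay between 0.159 and 0.445 over the 10 members. An unadjusted p under 0.05 was reached by 7 of 10 members, all higher, beside 13.2% of all genes that were higher at that level. The median log2 fold change was 1.23 over the members and 0.01 over all genes. No member had all 5 WT combination tumors above all isotype control tumors, which 1.35% of genes had.

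The values of the WT combination rested largely on 1 tumor. Without its replicate 5, the log2 fold change was 0.53 for H2-Aa, 0.69 for H2-Ab1, 0.66 for H2-Eb1, 0.52 for Cd74, 0.73 for Ciita and 0.03 for H2-DMa, with adjusted p from edgeR between 0.798 and 0.984. None of the 10 members then had an unadjusted p under 0.05, beside 2.8% of all genes that were higher at that level. With all mice, all 3 endothelial markers and Ptprc, the leukocyte marker, were higher at an unadjusted p under 0.05 and none was called, with a median log2 fold change of 0.79 and a value of 1.17. The endothelial sum was 74.2 to 98.0 CPM in the isotype control and 60.0 to 423 CPM in the WT combination, and Ptprc 107 to 176 and 152 to 782 CPM, with replicate 5 the highest of the 40 tumors in both. Without it, 0 of 3 and 0 of 1 were higher at that level, at 0.23 and 0.44. The part of these cells in the values was not tested. The values of H2-Aa also depended on the part of the libraries. In libraries 61 to 80 alone, with 3 mice against 3, H2-Aa had a log2 fold change of 2.26 (adjusted p = 0.038 from edgeR), and 5 members passed the threshold (H2-Aa, H2-Ab1, H2-Eb1, Cd74 and Ciita) together with 2171 genes in all. That part holds the outstanding tumor. In libraries 41 to 60, with 2 mice against 2, the value for H2-Aa was -0.11 and the adjusted p was 1. The difference between the parts was not tested.

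In the FcD combination no single tumor stood far above the others in H2-Aa. Ciita was at 68.6, 21.04, 60.9, 63.9 and 37.0 CPM, with 1 of 5 tumors inside the range of the isotype control (up to 26.2 CPM). Cd74 was at 1735, 919, 1461, 1514 and 1082 CPM against 694, 901, 622, 458 and 395 CPM in the isotype control. H2-DMa was at 102, 88.2, 98.99, 92.4 and 88.5 CPM against 54.5, 71.9, 78.0, 55.2 and 58.1 CPM. All 5 tumors exceeded all isotype control tumors for 7 of the 10 members, beside 1.96% of all genes. The exceptions were Ciita and H2-Oa, with 4 of 5 tumors above, and H2-Ob with 3. Log2 fold changes were 1.26 (SE 0.54) for H2-Aa, 1.36 (SE 0.53) for H2-Ab1, 1.37 (SE 0.56) for H2-Eb1, 1.13 (SE 0.50) for Cd74 and 1.61 (SE 0.62) for Ciita. The H2-O genes had 1.26 (SE 0.72) (H2-Oa) and 1.10 (SE 0.84) (H2-Ob). The peptide exchange genes had smaller log2 fold changes, with 0.57 (SE 0.32) for H2-DMa, 0.95 (SE 0.46) for H2-DMb1 and 0.79 (SE 0.37) for H2-DMb2. Adjusted p from edgeR ran from 0.245 to 0.487. Unadjusted, 7 of 10 members were higher at p under 0.05, beside 10.7% of all genes. Within libraries 41 to 60 the difference in mean log2 CPM of H2-Aa was 0.87 and within 61 to 80 it was 1.5, and all 10 members had a positive difference in both parts. Of the markers of other cells, all 3 adipocyte and all 3 epithelial markers were higher at an unadjusted p under 0.05 and none was called, with median log2 fold changes of 3.24 and 3.30. The summed adipocyte level was 0.693 to 23.1 CPM in the isotype control and 9.89 to 181 CPM in the FcD combination, and the epithelial sum 4.93 to 18.4 and 5.53 to 320 CPM. 1 of 3 fibroblast markers was also higher, with a median of 0.27 over the 3. Replicate 4 held the highest adipocyte and epithelial sums. Without it, 1 adipocyte and 0 epithelial markers were higher at that level, H2-Aa had 1.21 (SE 0.57), and 4 of 10 members were higher, beside 5.35% of all genes. The part of these cells in the values was not tested.

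In the anti-TGF-β combination the log2 fold change was 0.90 (SE 0.53) for H2-Aa, 0.94 (SE 0.50) for Cd74 and 0.59 (SE 0.62) for Ciita. It was 2.17 (SE 0.71) for H2-Oa and 1.69 (SE 0.83) for H2-Ob, and these 2 of the 10 members had an unadjusted p under 0.05, beside 8.49% of all genes. The adjusted p from edgeR ran from 0.142 (H2-Oa) to 0.6. No member had all 5 tumors above the isotype control, which 1.73% of genes had. H2-Ob was at 1.06, 0.909, 1.21, 0.824 and 11.1 CPM against 0.742, 1.64, 0.486, 0.786 and 1.04 CPM in the isotype control, so 1 tumor was high and the other 4 were within the range of the isotype control. Without that tumor the log2 fold change was 0.09 for H2-Ob and 1.14 for H2-Oa. Without replicate 1 of this combination, H2-Oa passed the threshold of edgeR's test (adjusted p = 0.0316, with 2013 genes called). H2-Oa rested on 10, 17, 7, 7 and 68 counts in replicates 1 to 5 against 7, 2, 5, 2 and 8 in the isotype control. Within libraries 41 to 60 the difference in mean log2 CPM of H2-Aa was 0.66 and within 61 to 80 it was 1.08.

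**Figure D3:**
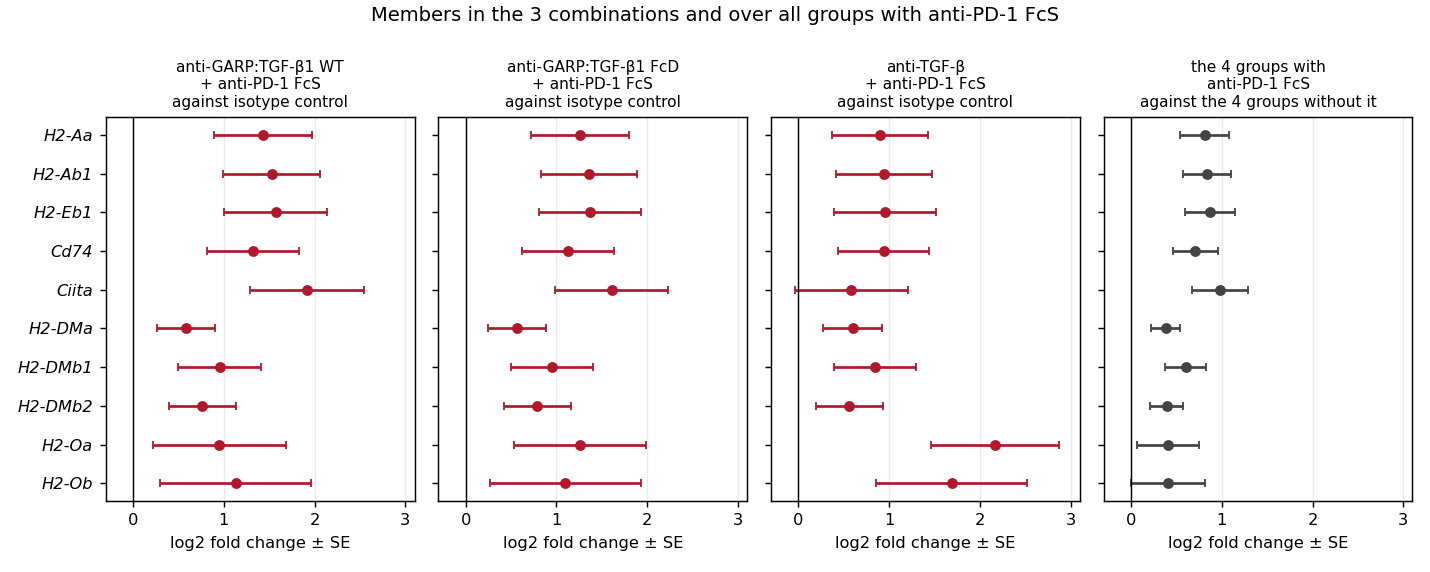
Log2 fold change of each member with its standard error, in the 3 combinations against the isotype control (red, 5 mice against 5) and in the 4 groups with anti-PD-1 FcS against the 4 without it (grey, 20 against 20). All 40 values lie above 0, and none passed an adjusted p of 0.05.

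With a single antibody no member passed the threshold. The median log2 fold change over the 10 members was 0.14 with anti-PD-1 FcS, 0.21 with anti-TGF-β, 0.41 with anti-GARP:TGF-β1 WT and -0.08 with anti-GARP:TGF-β1 FcD, beside 0.01, 0.01, 0.01 and -0.00 over all genes. The direction turned with the library part in 3 of the 4 groups. As differences in mean log2 CPM, the medians were -0.69 within libraries 41 to 60 and 0.49 within 61 to 80 with anti-PD-1 FcS, -0.32 and 0.44 with anti-TGF-β, and 0.41 and -0.14 with anti-GARP:TGF-β1 WT. With anti-GARP:TGF-β1 FcD they were -0.35 and -0.24. In the same order of groups, 2, 1, 10 and 1 of the 10 members were positive within 41 to 60, and 9, 10, 1 and 2 within 61 to 80. The adjusted p from edgeR rounded to 1 for every member in all 4. H2-Oa alone had an unadjusted p under 0.05, with anti-GARP:TGF-β1 WT, at 1.46 (SE 0.72), and its counts there were 35, 7, 9, 9 and 6 against 7, 2, 5, 2 and 8 in the isotype control. Beside this 1 of 10 members, 0.583% of all genes were higher at that level. Of these tumors replicate 1 held the most, and without it H2-Oa had 0.62 (SE 0.73). In the same comparison 4 of 7 B cell markers were higher at an unadjusted p under 0.05 and none was called, with a median of 2.80. Without replicate 1, 0 of the 7 were higher, with a median of 1.56. With anti-PD-1 FcS all 3 skeletal muscle markers were higher at that level (median 3.15). Without its replicate 2, 0 were, and the median over the 10 members was -0.31. With anti-TGF-β 2 of 8 dendritic cell markers (median 0.53) and 1 of 7 B cell markers (median 2.64) were higher. Without its replicate 2, 0 and 0 were, and the median over the members was -0.16. What these cells contribute to the values was not tested. No member had 5 treated tumors above all isotype control tumors, which 0.108%, 0.102%, 0.156% and 0.122% of genes had in the same order. Over all genes, 141, 342, 143 and 70 had an unadjusted p under 0.05 in either direction. For H2-Aa, 2 standard errors on each side of the estimate spanned -0.91 to 1.2 with anti-PD-1 FcS and -1.16 to 0.95 with anti-GARP:TGF-β1 FcD. These intervals include log2 fold changes of the size seen in the anti-TGF-β combination.

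Added to anti-PD-1 FcS, each partner antibody gave positive differences for 9 or 10 of the 10 members, none past the threshold. Against anti-PD-1 FcS alone the log2 fold change of H2-Aa was 1.28 (SE 0.54) in the WT combination, 1.11 (SE 0.53) in the FcD combination and 0.75 (SE 0.53) in the anti-TGF-β combination. Without replicate 5 of the WT combination, the first was 0.38. An unadjusted p under 0.05 was reached by 7, 6 and 1 of the 10 members, all higher, beside 11.2%, 6.46% and 7% of all genes. At an adjusted p of 0.05, edgeR called 0%, 0% and 0.00678% of genes and no member. The difference in mean log2 CPM of H2-Aa within libraries 41 to 60 was 0.70, 1.68 and 1.48 in the 3 combinations, and within 61 to 80 it was 1.28, 0.97 and 0.54. All 3 skeletal muscle markers were lower at an unadjusted p under 0.05 in each combination (median log2 fold changes of -3.07, -2.75 and -2.60), with a sum of 2.14 to 106 CPM in anti-PD-1 FcS. Of the 5 T cell markers 5, 0 and 0 were higher at that level, and of the 7 macrophage markers 6, 1 and 1. Of the 8 dendritic cell markers 2, 3 and 0 were higher, with medians of 0.58, 1.00 and 0.34. Ptprc (1.07) and 1 of 3 endothelial markers were higher in the WT combination, and 1 of 3 epithelial markers in the FcD combination, with a median of 3.06. Without replicate 4 of the FcD combination, 0 dendritic cell, 0 macrophage and 0 epithelial markers and 1 of 10 members were higher there, beside 2.78% of all genes. Without replicate 5 of the WT combination, 0 T cell, 0 macrophage and 0 dendritic cell markers were higher in that combination, and 0 members were higher, beside 2.13% of all genes. Replicate 2 of anti-PD-1 FcS held the highest muscle sum. Without it, 0, 0 and 0 muscle markers were lower, 5, 5 and 5 T cell, 6, 6 and 4 macrophage and 3, 5 and 0 dendritic cell markers were higher, and 8, 8 and 7 members were higher, beside 15.5%, 11.8% and 7.7% of all genes. H2-Aa then had 1.76, 1.58 and 1.23, with a lowest adjusted p of 0.0631 from edgeR. The part of these cells in the values was not tested. The comparisons with anti-PD-1 FcS and with the isotype control share the combination tumors. Between the FcD and the WT combination, where the antibodies differ in the Fc part, H2-Aa differed by -0.17 (SE 0.53), with 2 standard errors on each side giving -1.23 to 0.88. The range over the 10 members was -0.31 to 0.31, and 0% of genes were called by edgeR, with 192 at an unadjusted p under 0.05. The direction turned with the library part, since the mean log2 CPM of all 10 members was higher in the FcD combination within libraries 41 to 60, and that of 2 of 10 within 61 to 80, the part with the outstanding WT tumor. Without that tumor H2-Aa differed by 0.73 (SE 0.49), with an adjusted p of 0.918 from edgeR, and the median over the members was 0.60.

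Whether a partner antibody did more with anti-PD-1 FcS than without it was tested as an interaction. For H2-Aa the interaction on the log2 scale was 0.85 (SE 0.75) for anti-GARP:TGF-β1 WT, 1.22 (SE 0.75) for anti-GARP:TGF-β1 FcD and 0.58 (SE 0.75) for anti-TGF-β. The first was -0.05 (SE 0.67) without replicate 5 of the WT combination. With all mice, none of the 10 members had an unadjusted p under 0.05 in any of the 3, and edgeR called 0% of all genes, with 1291, 663 and 340 genes at that unadjusted level. All 3 skeletal muscle markers were lower at it in each interaction, with medians of -3.92, -3.08 and -3.77. In the interaction of anti-GARP:TGF-β1 WT 4 of 7 B cell markers were lower (median -3.97) and 1 of 7 macrophage markers was higher, and in that of anti-TGF-β 1 of 3 fibroblast markers was lower. Without replicate 1 of anti-GARP:TGF-β1 WT, 0 B cell markers were lower. Their part in the interactions was not tested. Without replicate 2 of anti-PD-1 FcS, a tumor high in H2-Aa, the values were 1.32, 1.69 and 1.07, and 0, 8 and 0 members were higher at an unadjusted p under 0.05, beside 10.8%, 6.83% and 0.847% of all genes. Muscle markers that were lower then numbered 1, 0 and 1, and T cell markers that were higher 4, 5 and 0.

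Over all 40 mice, the 4 groups with anti-PD-1 FcS were set against the 4 groups without it. The contrast averages anti-PD-1 FcS alone with the 3 combinations, so it does not give the effect of that antibody alone. Against the isotype control, the median log2 fold change over the members was 0.14 with anti-PD-1 FcS alone. It was 1.23, 1.19 and 0.92 in the WT, FcD and anti-TGF-β combinations. In the contrast, all 10 members had a positive log2 fold change. It was 0.81 (SE 0.27) for H2-Aa, 0.84 (SE 0.26) for H2-Ab1, 0.87 (SE 0.28) for H2-Eb1, 0.71 (SE 0.25) for Cd74 and 0.98 (SE 0.31) for Ciita, which is a fold of 1.98. For the H2-DM genes it was 0.38 (SE 0.16) (H2-DMa), 0.60 (SE 0.23) (H2-DMb1) and 0.39 (SE 0.18) (H2-DMb2), and for the H2-O genes 0.41 (SE 0.34) (H2-Oa) and 0.41 (SE 0.41) (H2-Ob). The chains, Cd74 and Ciita had adjusted p values of 0.0716 to 0.0929 in edgeR's test, above the threshold that 0.589% of genes (87) passed. Unadjusted, 8 of 10 members were higher at p under 0.05, beside 13.3% of genes. The median over the members was 0.66, beside -0.004 over all genes. At the same unadjusted level 5 of 7 macrophage, 2 of 8 dendritic cell and 3 of 3 epithelial markers were higher (the last with a median of 1.84), as were 1 of 3 endothelial and 1 of 3 fibroblast markers and Ptprc, the leukocyte marker, at 0.54. Without replicate 5 of the WT combination, 6 members, 5 macrophage and 1 epithelial markers were higher, beside 9.33% of genes, and without replicate 4 of the FcD combination 8 members and 0 epithelial markers, beside 11.6%. The part of these cells in the values was not tested.

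This contrast depended on single mice and on the library part. Leaving out 1 mouse at a time, 35 of the 40 fits called 0 members and 5 called 3 to 6. Without anti-TGF-β replicate 2, a tumor with high class II levels in a group without anti-PD-1 FcS, 6 members passed (the 3 chains, Cd74, Ciita and H2-DMb1), among 2233 genes. H2-Aa then had a log2 fold change of 0.92 with an adjusted p of 0.0195 from edgeR. The other 4 such mice were replicate 1 of anti-PD-1 FcS (4 members), replicates 2 (4 members) and 4 (3 members) of the WT combination and replicate 2 of the FcD combination (3 members). Without replicate 5 of the WT combination the value for H2-Aa was 0.59 (adjusted p = 0.178 from edgeR). In libraries 61 to 80 alone it was 1.31 (adjusted p = 0.0623), and Ciita passed the threshold with 1.59 (adjusted p = 0.0458). In libraries 41 to 60 alone the values were 0.30 for H2-Aa and 0.41 for Ciita, with an adjusted p of 1. DESeq2's Wald test called 3 members over all mice, H2-Ab1, H2-Eb1 and Ciita, among 891 genes.

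A test for any difference among the 8 groups gave an adjusted p of 0.143 for Ciita, the lowest of the 10 members, and 0.0271% of genes passed in edgeR.

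The members varied together from tumor to tumor. Over the 40 tumors, Pearson's r of log2 CPM was 0.991 to 0.998 among the 3 chain genes and Cd74. Among the 8 members other than H2-Oa and H2-Ob it ranged from 0.823 to 0.998, with a median of 0.949 over 28 pairs, and the lowest was between Ciita and H2-DMa. H2-Oa and H2-Ob had an r of 0.202 to 0.637 with these 8. The tumors share library parts and treatment groups, so these values are a description. The ratio of H2-Aa to H2-Ab1 lay between 0.990 and 1.29 in all 40 tumors, while H2-Aa to H2-DMa ran from 1.86 to 11.1 and H2-Aa to Ciita from 11.9 to 35.8. On the log2 scale the ratio of H2-Aa to H2-DMa was 0.68 higher in the WT combination and 0.71 higher in the FcD combination than in the isotype control. The 2-sided exact permutation p was 0.0476 for either, and 0.167 after adjustment over the 28 ratio tests made, which was the lowest adjusted value of the 28. For the WT combination without replicate 5, the value was 0.53 (4 mice against 5, 2-sided exact permutation p = 0.0952, not adjusted). Over the 4 groups with against the 4 without anti-PD-1 FcS, this ratio was 0.42 higher (permutation p = 0.0127, adjusted 0.167). On the same scale H2-Aa to H2-Ab1 differed by -0.14 in the WT combination against the isotype control (2-sided exact permutation p = 0.0397, adjusted 0.167), and -0.16 without replicate 5 (exact permutation p = 0.0159, not adjusted). H2-DMb1 to H2-DMb2 was 0.33 higher in the anti-TGF-β combination (exact permutation p = 0.0238), and over anti-PD-1 FcS H2-Aa to Cd74 was 0.09 higher (permutation p = 0.0382), both with the same adjusted value. These ratios were chosen after the levels had been seen.

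**Figure D4:**
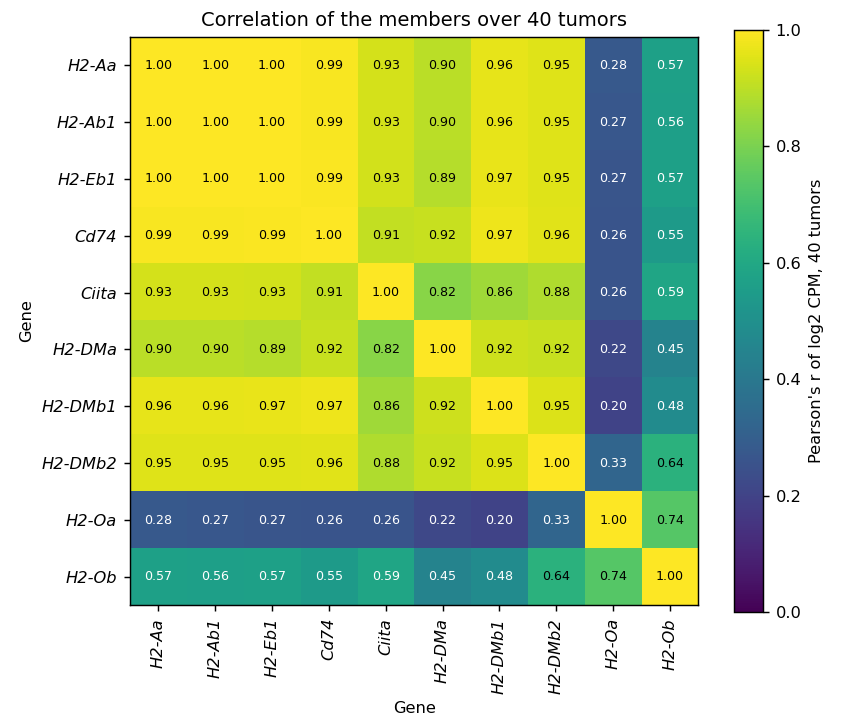
Pearson's r of log2 CPM between each pair of the 10 members over the 40 tumors, from 0 (dark) to 1 (yellow). The first 8 genes form a block with values of 0.82 and above, and H2-Oa and H2-Ob have 0.64 or less with them and 0.74 with each other.

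Of all other genes tested, H2-Ea-ps was most like H2-Aa, H2-Ab1, H2-Eb1, Cd74, Ciita, H2-DMb1 and H2-DMb2 over the 40 tumors, with an r of 0.99 for H2-Aa and 0.95 for Ciita. This is the E α chain gene, annotated as a pseudogene because C57BL/6 mice lack its product, whereas BALB/c mice make the E molecule. It ranged over 114 to 331 CPM in the isotype control and over 297 to 580.3 CPM in the FcD combination. Next to H2-Aa came RP23-52N2.1 (0.94), Fam26f (0.94), Il18bp (0.93), which encodes a soluble inhibitor of interleukin-18, and Dnase1l3 (0.93), a secreted DNase. H2-DMa was most like Neurl3 (0.94), Cd52 (0.94) and Ly86 (0.93). Without the tumor highest in H2-Aa, the r of H2-Ea-ps with H2-Aa was 0.99, and after subtraction of the group means it was 0.99. H2-Ob was most like Blk (0.85), a kinase of the B cell receptor pathway, Fcrl1 (0.85), Cd79a (0.84), Cd79b (0.84) and Ighd (0.83). H2-Oa was most like the immunoglobulin light chain segment Iglv1 (0.88), followed by Dtx1 (0.85) and Iglc2 (0.84).

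Markers of leukocytes were compared with the members. The summed level of 7 macrophage markers was 1554 to 2317 CPM in the isotype control, 1694 to 7619.9 in the WT combination, 2102 to 3280.2 in the FcD combination and 2264 to 2832 in the anti-TGF-β combination. In the groups with a single antibody it was 1169 to 2913 with anti-PD-1 FcS, 1206 to 3789 with anti-TGF-β, 1761 to 2313 with anti-GARP:TGF-β1 WT and 1307 to 2241 with anti-GARP:TGF-β1 FcD. Against the isotype control, 5, 2 and 1 of the 7 were higher at an unadjusted p under 0.05 in the WT, FcD and anti-TGF-β combinations, beside 13.2%, 10.7% and 8.49% of all genes, and none was called. The first count was 0, beside 2.8%, without replicate 5 of the WT combination. Without replicate 4 of the FcD combination, the second was 0, beside 5.35%. For the 8 dendritic cell markers these counts were 3, 5 and 0, and their sum was 46.0 to 63.4 CPM in the isotype control, 49.9 to 130.3, 63.9 to 88.6 and 48.7 to 76.0 CPM in the combinations. Without the same replicates the first and the second of these counts were 0. All macrophage and dendritic cell markers had counts in every tumor. H2-Aa had an r of 0.84 with the macrophage sum, 0.80 with the dendritic cell sum, 0.80 with Ptprc, which marks all leukocytes, 0.78 with 5 T cell markers and 0.38 with 7 B cell markers over the 40 tumors. Outside the leukocytes it was 0.49 with endothelial, 0.40 with adipocyte, 0.18 with fibroblast, 0.10 with epithelial and 0.06 with skeletal muscle markers. Ciita had its highest r with Ptprc (0.93). These r were not computed without replicate 5 of the WT combination, the tumor highest in H2-Aa, the macrophage sum and Ptprc. Divided by the macrophage sum, H2-Aa was 0.75 higher on the log2 scale in the FcD combination than in the isotype control (2-sided exact permutation p = 0.0476, adjusted 0.167). In the WT combination this was 0.56 (exact permutation p = 0.0952, adjusted 0.178), and it was 0.45 without its replicate 5 (exact permutation p = 0.19). Over the groups with and without anti-PD-1 FcS it was 0.42 (permutation p = 0.0318, adjusted 0.167). In the anti-TGF-β combination it was 0.46 (exact permutation p = 0.167, adjusted 0.222). Divided by Ptprc, H2-Aa was higher by 0.18 (exact permutation p = 0.468, adjusted 0.486) in the WT, 0.51 (exact permutation p = 0.119, adjusted 0.178) in the FcD and 0.78 (exact permutation p = 0.0794, adjusted 0.174) in the anti-TGF-β combination, none past the threshold. For the WT combination without replicate 5 it was 0.11 (exact permutation p = 0.683). The part of these cells in the levels of the members was not tested.

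**Figure D5:**
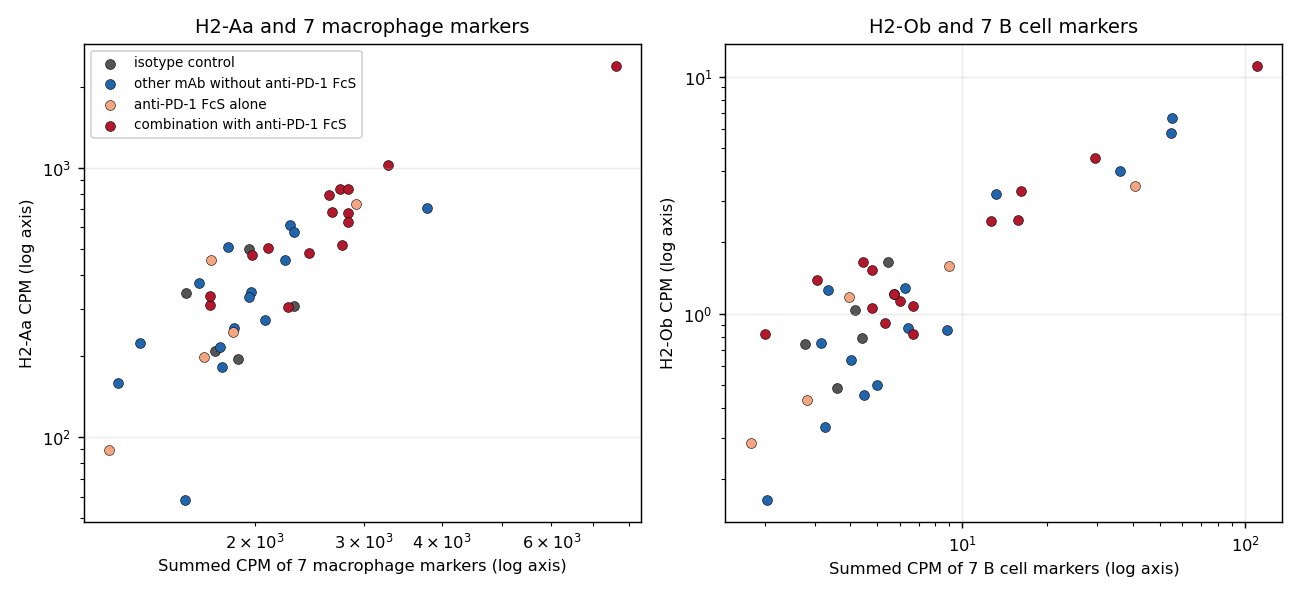
Left, H2-Aa against the summed level of 7 macrophage markers, and right, H2-Ob against that of 7 B cell markers, both in CPM on log axes. Each point is 1 of 40 tumors (grey, isotype control; orange, anti-PD-1 FcS alone; red, combinations; blue, other single antibodies). H2-Aa follows the macrophage sum (r = 0.84), and the 3 tumors with the highest H2-Ob have the 3 highest B cell sums (r = 0.90). The tumor highest on both left axes is replicate 5 of the WT combination, and r was not computed without it.

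The H2-O genes followed B cell markers. H2-Ob had an r of 0.90 and H2-Oa of 0.80 with the summed level of 7 B cell markers, against 0.43 and 0.20 with the macrophage sum. The tumor with the highest H2-Ob level, replicate 5 of the anti-TGF-β combination (11.1 CPM), had the highest B cell sum (110.4 CPM). Next came anti-TGF-β replicate 2 (6.71 CPM of H2-Ob and 55.0 CPM of B cell markers) and anti-GARP:TGF-β1 WT replicate 1 (5.76 and 54.9 CPM). The B cell sum was 2.78 to 5.45 CPM in the isotype control, 1.78 to 40.8 with anti-PD-1 FcS, 2.04 to 55.0 with anti-TGF-β, 3.34 to 54.9 with anti-GARP:TGF-β1 WT and 3.17 to 36.0 with anti-GARP:TGF-β1 FcD. It was 2.003 to 29.4 CPM in the WT, 4.45 to 16.1 in the FcD and 4.77 to 110.4 in the anti-TGF-β combination. In anti-PD-1 FcS replicate 1, H2-Ob was 3.47 CPM while H2-Aa was 89.7 CPM, lower than in all but 1 of all tumors, and its B cell sum was 40.8 CPM. In the anti-TGF-β combination 7 of 7 B cell markers were higher than in the isotype control at an unadjusted p under 0.05, beside 8.49% of all genes, and none was called. Without replicate 5 of that combination 0 of 7 were, beside 5.39%. Of the 7, Cd79a was at 0 in 1 tumor, Ms4a1 and Cr2 in 7 each and Fcer2a in 8. The part of B cells in the H2-O levels was not tested.

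Genes around the members in the pathway were taken from lists chosen with earlier results of these data known. Of 11 genes for the complex on class II promoters and for class II transcription, 0 passed the adjusted threshold between the groups with and without anti-PD-1 FcS, and 1 was higher at an unadjusted p under 0.05 (Kat2b, a histone acetyltransferase, 0.14 (SE 0.06)). Rfx5, a subunit of the RFX complex, differed by 0.08 (SE 0.06) and ranged over 18.8 to 25.6 CPM in the isotype control and 21.3 to 28.1 CPM in the FcD combination. The median of the 11 was 0.01, and 13.3% of all genes were higher at that level in this contrast.

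Of 8 tested genes for further class II chains and antigen processing, 0 passed the adjusted threshold and 7 were higher at an unadjusted p under 0.05, beside 13.3% of all genes, with a median of 0.43. They include Ctss (0.53 (SE 0.17)), which trims the invariant chain, Ctsb (0.48 (SE 0.14)), Ctsd (0.50 (SE 0.14)) and Lgmn (0.39 (SE 0.13)), endosomal proteases, and Ifi30 (0.29 (SE 0.11)), a thiol reductase that opens proteins for cleavage. The lowest adjusted p was 0.0583 from edgeR, for Ctsb. H2-Ea-ps differed by 0.83 (SE 0.27), H2-Eb2 was too low to be tested, and the genes of the ubiquitin ligases that remove class II from the surface could not be matched, since such names stand as calendar dates in the table. In the WT combination against the isotype control 5 of the 8 were higher at an unadjusted p under 0.05, in the FcD combination 5 and in the anti-TGF-β combination 3, beside 13.2%, 10.7% and 8.49% of all genes. Of the 7 macrophage markers, 5, 2 and 1 were higher at that level in these comparisons. Between the groups with and without anti-PD-1 FcS, 5 were. In the WT combination Ctsb was at 1212 to 5197 CPM (mean 2394, SD 1617), against 1143 to 1504 CPM in the isotype control. Ctss was at 581 to 2456 and 496 to 651 CPM. The counts over these 8 genes were not repeated without replicate 5 of the WT combination. The part of macrophages in them was not tested.

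Upstream of Ciita, 14 genes were tested, which are genes of interferon-γ and TGF-β signaling and Il10. Ifng, the cytokine itself, passed the threshold between the groups with and without anti-PD-1 FcS with a log2 fold change of 1.00 (SE 0.24) and an adjusted p of 0.0498 from edgeR. It was 0.554 to 1.61 CPM in the isotype control, 1.75 to 5.66 CPM in the WT combination, 2.56 to 3.85 CPM in the FcD combination and 2.06 to 4.51 CPM in the anti-TGF-β combination, so all 15 combination tumors exceeded all isotype control tumors, as in 1.35%, 1.96% and 1.73% of genes in the 3 combinations. With anti-PD-1 FcS alone it was 0.148 to 3.45 CPM. The call was at the edge, since it was kept in 11 of 40 fits with 1 mouse left out, where the adjusted p ran from 0.00722 to 0.116, and was lost with DESeq2's size factors (adjusted p = 0.05002) and without the filter (0.0923). Among the other settings of edgeR and DESeq2 that were tried, the lowest adjusted p was 0.0060. In libraries 41 to 60 alone the log2 fold change was 0.63 with an adjusted p of 1, and in 61 to 80 alone it was 1.43 with an adjusted p of 0.0341, both from edgeR. Irf1 (0.40 (SE 0.12)), a transcription factor induced by interferon-γ, and Socs1 (0.40 (SE 0.10)), a feedback inhibitor of its signal, had adjusted p values of 0.0681 and 0.0546. Smad3, a mediator of TGF-β signals, had -0.16 (SE 0.06), and was the single gene of the 14 that was lower at an unadjusted p under 0.05, while 8 were higher, beside 13.3% of all genes. Their median was 0.19. Of the receptors that bind class II, Cd4 differed by 0.49 (SE 0.22) and Lag3, an inhibitory receptor, by 0.24 (SE 0.24), with adjusted p values of 0.17 and 0.563.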

How the data were processed

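The authors sequenced stranded mRNA libraries of 40 tumors and deposited 1 table of raw counts per gene. Per the labels' processing notes, STAR 2.5.3a, SAMtools 1.6, HTSeq 0.9.1 and the GRCm38 build were used. The annotation release and the strand setting of the counting are not given in the sources used here. Totals were 11931730 to 20680548 counts per mouse (median 14030511), and 25 names stood as calendar dates. Groups came from the labels, and p-values measure the spread between these mice. In R 4.3.3, edgeR 4.0.16 (TMM scaling, filterByExpr, robust quasi-likelihood fit) fitted the group means of all 40 mice, with Benjamini-Hochberg adjustment over 14760 genes and a threshold of 0.05. The script was tested on simulated data. Standard errors were derived from the F statistic, and correlations used log2 CPM with a prior count of 2. DESeq2 1.42.0 and other settings were alternatives. Exact permutation tests used scipy 1.17.1, and tests of 20 against 20 mice drew 100000 resamples. Sequences came from RefSeq windows, and gene positions from GENCODE M21 by symbol. All 10 members were named, with 9 fixed pathway genes, up to 6 more with the lowest p in the contrast over anti-PD-1 FcS, and the 5 genes most like each member by correlation. Some listed genes are not reported here by name. Fits without WT combination replicate 5, FcD combination replicate 4, anti-PD-1 FcS replicate 2, anti-GARP:TGF-β1 WT replicate 1, anti-TGF-β replicate 2 or anti-TGF-β combination replicate 5 were chosen after seeing the data. The members and lists were chosen with earlier results of these data known.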

Additional observations from a re-analysis of the deposited data

Results flagged for a closer look

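In 15 of 80 pairs of a member and a group, 1 of the 5 mice lay so far from its neighbour that the gap, divided by the range of the group, exceeded Dixon's 95% critical value of 0.71. For normally distributed values chance flags about 1 in 20 such groups. The rule was applied to CPM without a log transform, so that rate may not hold here. Members that vary together are also not independent. Replicate 5 of the WT combination was such a mouse for 8 members, with 2389.5 CPM of H2-Aa, 2089 of H2-Ab1, 2034 of H2-Eb1, 4164 of Cd74, 201 of Ciita, 215 of H2-DMa, 135 of H2-DMb1 and 73.3 of H2-DMb2. Replicate 2 of anti-TGF-β was the high mouse for Ciita (59.6 CPM), H2-Oa (2.18 CPM) and H2-Ob (6.71 CPM). Replicate 5 of the anti-TGF-β combination was it for H2-Oa (4.58 CPM) and H2-Ob (11.1 CPM), replicate 1 of anti-GARP:TGF-β1 WT for H2-Oa (2.62 CPM) and replicate 4 of anti-GARP:TGF-β1 FcD for H2-Ob (3.99 CPM). All were the highest of their group.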

How the results depend on the processing

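No member was called in any comparison of the main test, and the number of members called stayed at 0 except as given here. For the 4 groups with anti-PD-1 FcS against the 4 groups without it, the 87 genes called became 39 with DESeq2's size factors, 0 without the filter, 891 (3 members) with DESeq2's Wald test, 385 with the library part as a covariate, 0 in libraries 41 to 60 alone and 284 (1 member) in 61 to 80 alone. In the WT combination against the isotype control, libraries 61 to 80 alone gave 2171 genes and 5 members. In the FcD combination against it, DESeq2 called 12 genes, the covariate 17 and libraries 61 to 80 alone 201. In the anti-TGF-β combination against it, DESeq2 called 138 genes and a model of only these 2 groups 7, and with anti-PD-1 FcS alone DESeq2 called 3. In the anti-TGF-β combination against anti-PD-1 FcS the single gene called became 85 with DESeq2 and 0 in either library part alone and in a model of the 2 groups. DESeq2 called 1 gene in the interaction of anti-TGF-β. For any difference among the 8 groups the 4 genes became 9 without the filter, 1268 (1 member) with DESeq2's likelihood ratio test, 35 with the covariate, 0 in libraries 41 to 60 alone and 2841 (1 member) in 61 to 80 alone. The sign turned in libraries 41 to 60 alone for H2-Aa (-0.11), Cd74 (-0.0949), H2-DMa (-0.17), H2-DMb1 (-0.20) and H2-DMb2 (-0.24) in the WT combination against the isotype control, for H2-Ob in the anti-TGF-β combination (-0.26 beside the isotype control, -0.85 beside anti-PD-1 FcS), for H2-Ob in the WT combination against anti-PD-1 FcS (-0.13), and for H2-DMb2 (-0.0186) and H2-Ob (-0.14) over anti-PD-1 FcS. It turned in libraries 61 to 80 alone for H2-Oa in the WT combination (0.19) and Ciita in the anti-TGF-β combination (-0.0865), both against anti-PD-1 FcS.

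With 1 mouse left out at a time, the genes called ran from 0 to 2233 (members 0 to 6) over anti-PD-1 FcS, from 0 to 2312 (members 0 to 1) for any difference among groups, from 0 to 2013 (members 0 to 1) in the anti-TGF-β combination against the isotype control, from 0 to 1748 against anti-PD-1 FcS, from 0 to 543 in the WT combination against anti-PD-1 FcS and from 0 to 1 in the interaction of anti-TGF-β. Against anti-PD-1 FcS, the log2 fold change of H2-Oa in the WT combination ran from -0.41 to 0.76, and in the anti-TGF-β combination that of Ciita from -0.0786 to 0.74 and that of H2-Ob from -0.47 to 1.80. The cause was not tested for any of these. H2-Oa and H2-Ob rest on few counts, which limits their precision. No paired analysis was possible because the replicate numbers only follow the order of the samples.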
